A study of Mus musculus with 6 samples.

Results

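The reelin receptor pathway was described in the day 4 mouse uterus through 9 of the 56748 genes in the deposited tables. These were the ligand *Reln*, the receptors *Vldlr* and *Lrp8*, the adaptors *Dab1* and *Dab2*, the kinases *Fyn* and *Src*, and the adaptors *Crk* and *Crkl*. The list was chosen by the measured CPM difference of *Dab1*, which was known from earlier results of these data, and the other members entered by their place in the pathway or by their likeness to one of its genes. Values of *Dab1*, its call included, are therefore given as a description, and no p-value is given for it. All 9 genes passed the filter on low counts, which kept 16605 genes.

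The data are RNA-seq of the whole uterus at 1600 h on day 4 of pregnancy, before the embryo attaches, with 3 control and 3 *Gp130* ecKO samples. All females were on a C57BL/6 background by the labels (C57BL/6J in the study's methods), more than 8 weeks old and mated with wildtype males. The *Gp130* ecKO females were *Ltf* iCre/+; *Gp130* flox/flox, and the study's methods give the controls as *Ltf* +/+; *Gp130* flox/flox or wildtype, where the deposited labels say WT. The iCre stood in the *Ltf* locus, which is active in uterine epithelium and also in some immune cells, and no control is described as carrying iCre alone. The labels do not state that each uterus came from a different animal, so the p-values measure the spread between these samples.

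Reelin is a large secreted glycoprotein that binds the lipoprotein receptors VLDLR and LRP8, also called ApoER2. DAB1 binds the cytoplasmic tails of these receptors, is phosphorylated on tyrosine by the SRC-family kinases FYN and SRC, recruits CRK and CRKL, and is then degraded through CUL5 ubiquitin ligases with SOCS proteins. The pathway is best known for placing migrating neurons in the developing brain, and reelin is also made by lymphatic endothelium. DAB2 is a related adaptor for endocytosis of lipoprotein receptors that is found in many tissues outside the brain.

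The 250 bases before 2 annotated starts of *Dab1* and 2 of *Dab2* are shown, because these related adaptors lay on opposite sides of the controls in the *Gp130* ecKO uteri. The bases were read from GRCm39 on the plus strand, 5′ to 3′, at the starts of GENCODE M39 transcripts. The Dab1-205 window is chr4:103476306-103476555, before the first exon of the gene. The Dab1-206 window is chr4:104224060-104224309, before a start inside the gene and just upstream of the start of its longest transcript in the files. The Dab2-201 window is chr15:6329019-6329268, before the first exon of the gene, and the Dab2-202 window is chr15:6415829-6416078, before the start of its longest transcript in the files. Both genes have further annotated starts that are not shown. Capitals mark the STAT motif TTCNNNGAA, the only searched motif found in these windows.
Dab1-205: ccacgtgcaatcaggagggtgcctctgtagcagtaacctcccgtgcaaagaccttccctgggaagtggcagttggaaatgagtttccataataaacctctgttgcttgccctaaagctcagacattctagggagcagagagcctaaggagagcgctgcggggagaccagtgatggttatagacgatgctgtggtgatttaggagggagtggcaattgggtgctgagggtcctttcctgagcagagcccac
Dab1-206: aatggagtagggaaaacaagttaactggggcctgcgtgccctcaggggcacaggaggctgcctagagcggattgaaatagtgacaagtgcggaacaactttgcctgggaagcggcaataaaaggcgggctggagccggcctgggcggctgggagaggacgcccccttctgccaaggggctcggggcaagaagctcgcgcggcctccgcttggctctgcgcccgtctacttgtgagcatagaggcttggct
Dab2-201: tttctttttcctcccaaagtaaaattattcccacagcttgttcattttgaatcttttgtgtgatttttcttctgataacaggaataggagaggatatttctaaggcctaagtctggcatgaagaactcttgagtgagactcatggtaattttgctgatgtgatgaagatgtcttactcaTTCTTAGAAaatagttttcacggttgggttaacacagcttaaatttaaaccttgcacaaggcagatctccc
Dab2-202: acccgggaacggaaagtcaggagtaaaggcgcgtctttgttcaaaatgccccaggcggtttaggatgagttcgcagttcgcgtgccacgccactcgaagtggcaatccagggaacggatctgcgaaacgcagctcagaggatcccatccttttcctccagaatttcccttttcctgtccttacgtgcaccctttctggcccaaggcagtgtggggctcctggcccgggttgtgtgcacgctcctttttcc
The STAT motif was searched because GP130 signals through STAT3, and the estrogen response element (GGTCA and TGACC with 3 bases between them) because the uterus responds to estrogen at this stage. Each motif reads the same on both strands, and no window held overlapping matches. The Dab2-201 window held 1 STAT motif, and the other windows held neither motif. Of 21770 windows of 250 bases before protein-coding genes, 7.82% held the STAT motif and 0.0781% held the estrogen response element. A match describes these letters only, and was not tested as a site.

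Expected counts summed to between 13960748, in control 3, and 25906443 per uterus. The targeted gene, listed as *Il6st*, stood at 631, 678 and 452 CPM in the controls and at 388, 349.8 and 362 CPM in the *Gp130* ecKO uteri, where CPM is edgeR's count scaled to the TMM-adjusted library size and values run over uteri 1, 2 and 3 of each group, here and throughout. All 3 *Gp130* ecKO uteri lay below the controls. Its log2 fold change was −0.68 ± 0.21 (SE, edgeR quasi-likelihood adjusted p = 0.120). Control 2 stood closer to the *Gp130* ecKO uteri than the other controls did: across genes, its log2 values correlated at r = 0.959 with *Gp130* ecKO 2 and 0.949 with control 1, where genes are not independent replicates. A gene was called when its Benjamini-Hochberg adjusted p was under 0.05 and it differed more than 2-fold. Of the 16605 genes, 26 (0.157%) were called, 0.126% higher and 0.0301% lower in *Gp130* ecKO. Without control 2, 892 of 17142 genes (5.2%) were called. In RNA of whole tissue, fewer cells of a type and less RNA per cell cannot be told apart.

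*Dab1* was the member with the largest difference. *Dab1* (ENSMUSG00000028519, GRCm39 chromosome 4, 103476556 to 104602041, plus strand) encodes the adaptor that carries the reelin signal from the receptors into the cell. It stood at 12.6, 13.0 and 13.5 CPM in the controls and at 44.8, 43.9 and 45.3 CPM in the *Gp130* ecKO uteri. The groups lay far apart and the uteri within each group lay close together. The fold was 3.43 and the log2 fold change 1.78 ± 0.16 (SE, n = 3 per group). *Dab1* was the only member among the 26 called genes, where 0.157% of all tested genes were called. Because it was chosen for this difference, the count says nothing more about the pathway. The log2 fold change lay between 1.71 and 1.81 over the 17 alternative analyses, and the call that chose the gene was made in 11 of the 17. It was lost when any single uterus other than control 2 was left out, and with the replicate number as a block. These counts describe the choice of *Dab1* and do not test it. Of the genes nearest *Dab1* that could be tested, *Gm12715* lies 54829 bases away and had a log2 fold change of 0.49, and *Fyb2*, 168480 bases away, had 0.57. The groups overlapped for both neighbours.

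**Figure D1:**
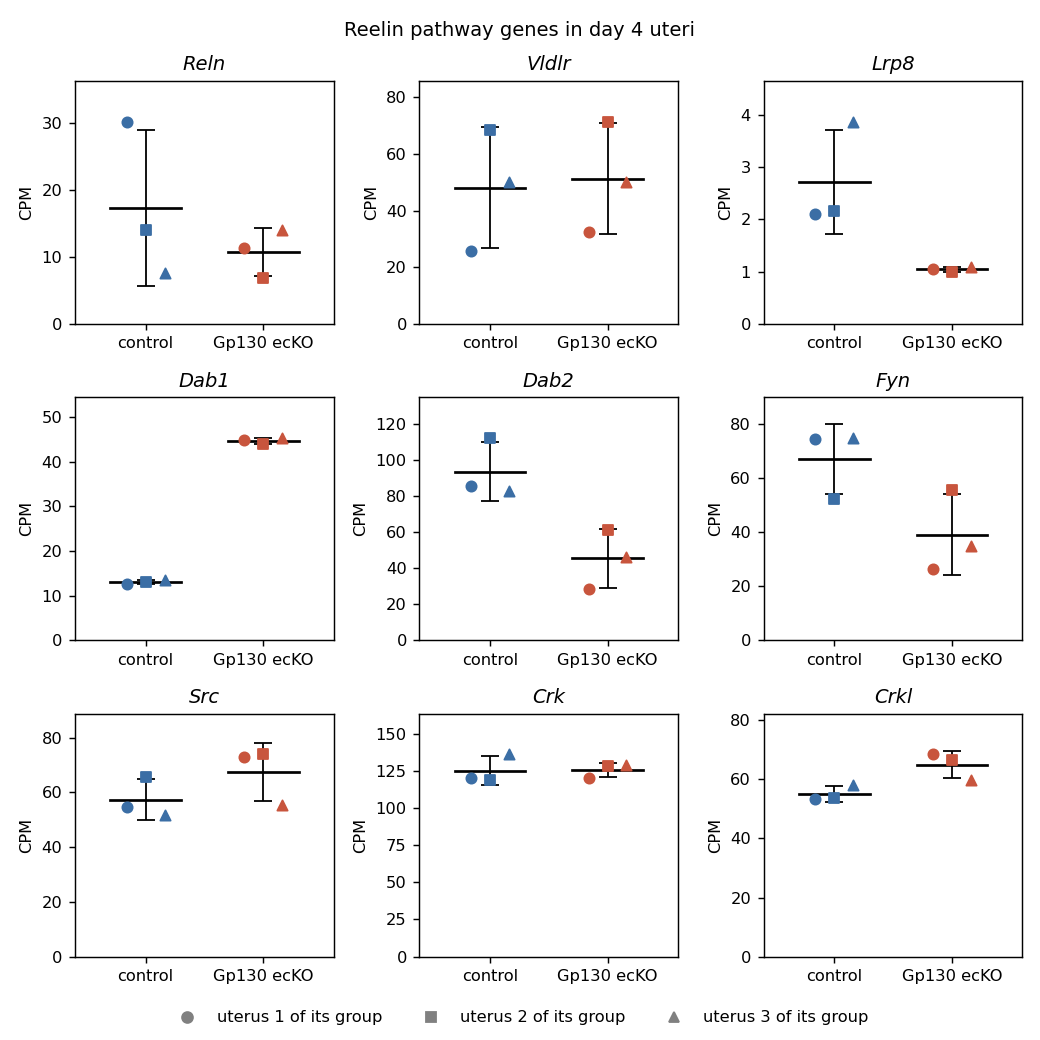
CPM of each of the 9 members in each uterus, with control in blue and *Gp130* ecKO in red. Lines are means, bars are SD over 3 uteri, symbols name the uterus, and each panel has its own axis from 0. *Dab1* separates the groups widely (12.6 to 13.5 against 43.9 to 45.3), *Lrp8* and *Dab2* lie lower in every *Gp130* ecKO uterus, and *Crkl* lies higher in each.

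*Reln* (ENSMUSG00000042453, chromosome 5, 22089452 to 22549700, minus strand), the ligand, stood at 30.2, 14.0 and 7.67 CPM in the controls and at 11.3, 6.85 and 14.05 CPM in the *Gp130* ecKO uteri. Control 1 was far above the other 5 uteri, and the groups overlapped. The log2 fold change was −0.70 ± 0.51 (SE, edgeR quasi-likelihood adjusted p = 0.417), and it was −0.0027 without control 1. The mean transcript length that RSEM gave for *Reln* was 2187 to 3347 bases, against 11699 for its longest transcript. Most of its estimated transcripts were thus shorter than the full message, and its CPM is that of the whole gene.

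*Vldlr* (ENSMUSG00000024924, chromosome 19, 27193862 to 27231631, plus strand), which encodes a receptor of reelin, stood at 25.8, 68.4 and 50.0 CPM in the controls and at 32.3, 71.5 and 50.2 CPM in the *Gp130* ecKO uteri. The spread within each group was far larger than the difference between them, whose sign turned when control 1 or *Gp130* ecKO 2 was left out, with a log2 fold change of 0.09 ± 0.40 (SE, edgeR quasi-likelihood adjusted p = 0.896).

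*Lrp8* (ENSMUSG00000028613, chromosome 4, 107659066 to 107734038, plus strand), which encodes the other receptor, was the weakest member. It stood at 2.10, 2.16 and 3.87 CPM in the controls and at 1.04, 1.00 and 1.08 CPM in the *Gp130* ecKO uteri. These values rest on 52, 56 and 58 counts in the controls and 23, 26 and 26 in the *Gp130* ecKO uteri. Every *Gp130* ecKO uterus lay below every control, with control 3 the highest. The log2 fold change was −1.36 ± 0.39 (SE), and its adjusted p was 0.112 from edgeR's quasi-likelihood test and 0.0365 from DESeq2.

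*Dab2* (ENSMUSG00000022150, chromosome 15, 6329269 to 6470196, plus strand) stood at 85.6, 112 and 82.8 CPM in the controls and at 28.6, 61.3 and 46.3 CPM in the *Gp130* ecKO uteri. Every *Gp130* ecKO uterus lay below every control, and *Gp130* ecKO 1 was the lowest. The log2 fold change was −1.04 ± 0.29 (SE), and its adjusted p was 0.104 from edgeR's quasi-likelihood test, 0.0294 from its exact test and 0.0299 from DESeq2. Per length, the ratio of *Dab1* to *Dab2* TPM was 0.120, 0.0977 and 0.135 in the controls and 1.59, 0.676 and 0.920 in the *Gp130* ecKO uteri. Transcripts of the adaptors were thus at similar levels in the *Gp130* ecKO uteri, where *Dab2* was the far more abundant of them in the controls. The ratio includes the value that chose *Dab1*, so it is a description.

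*Fyn* (ENSMUSG00000019843, chromosome 10, 39244851 to 39442227, plus strand), which encodes a kinase that phosphorylates DAB1, stood at 74.4, 52.3 and 75.01 CPM in the controls and at 26.4, 55.6 and 35.03 CPM in the *Gp130* ecKO uteri. *Gp130* ecKO 2 lay above control 2, so that the ranges overlapped. The log2 fold change was −0.78 ± 0.30 (SE, edgeR quasi-likelihood adjusted p = 0.165). A non-coding gene on the opposite strand, *Gm16364*, overlaps *Fyn* and reached at most 2.58 CPM.

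*Src* (ENSMUSG00000027646, chromosome 2, 157260355 to 157313782, plus strand), which encodes the other kinase, stood at 54.8, 65.7 and 51.5 CPM in the controls and at 73.0, 74.0 and 55.3 CPM in the *Gp130* ecKO uteri. The groups overlapped, and the log2 fold change was 0.23 ± 0.19 (SE, edgeR quasi-likelihood adjusted p = 0.454). The kinases thus had fold changes of opposite sign, and neither passed the test.

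*Crk* (ENSMUSG00000017776, chromosome 11, 75570085 to 75597737, plus strand), an adaptor that binds phosphorylated DAB1, stood at 120, 119 and 136 CPM in the controls and at 120, 128 and 129 CPM in the *Gp130* ecKO uteri. Its difference was the smallest of the 9, and its sign turned under other scalings, with a log2 fold change of 0.01 ± 0.14 (SE, edgeR quasi-likelihood adjusted p = 0.977). *Crkl* (ENSMUSG00000006134, chromosome 16, 17269821 to 17305298, plus strand), the related adaptor, stood at 53.4, 53.7 and 58.2 CPM in the controls and at 68.6, 66.7 and 59.7 CPM in the *Gp130* ecKO uteri. Every *Gp130* ecKO uterus lay above every control, though *Gp130* ecKO 3 only by little. The log2 fold change was 0.24 ± 0.15 (SE, edgeR quasi-likelihood adjusted p = 0.343).

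Besides *Dab1*, the groups did not overlap for 3 of the other 8 members, *Crkl* with higher and *Dab2* and *Lrp8* with lower values in *Gp130* ecKO, where 31.3% of all tested genes did not overlap. An unadjusted p under 0.05 was found for 3 of the 8, *Lrp8*, *Dab2* and *Fyn*, where 25% of all tested genes had it. Of the 8 members other than *Dab1*, edgeR's quasi-likelihood test called 0, and the exact test and the likelihood ratio test called *Dab2*. DESeq2 called *Dab2* and *Lrp8*. These tests called many more genes in all, with 7.54% for the exact test, 7.93% for the likelihood ratio test and 9.65% for DESeq2.

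**Figure D2:**
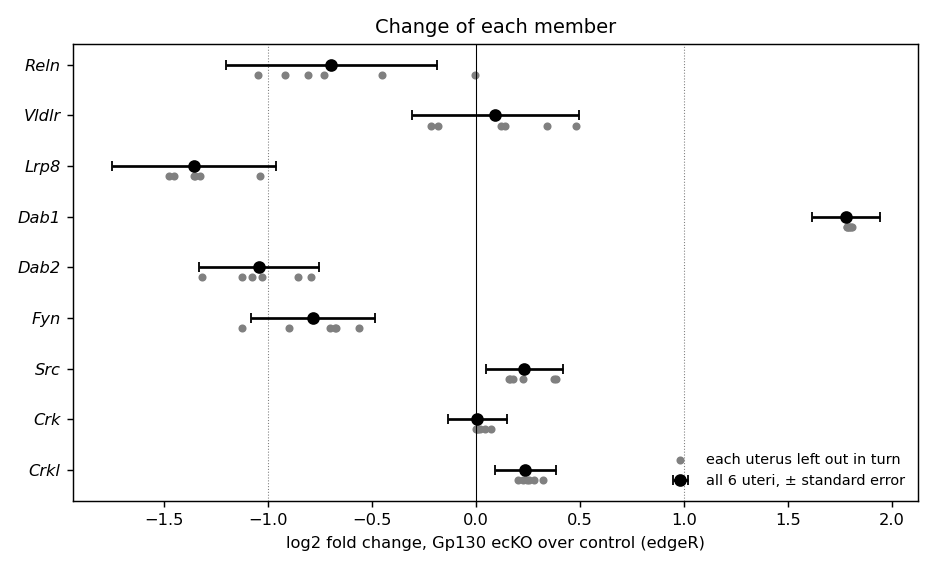
Log2 fold change of each member, *Gp130* ecKO over control, from edgeR. Black points with bars are the estimate from all 6 uteri ± standard error, grey points are the estimates with each uterus left out in turn, and dotted lines mark a 2-fold change. *Dab1* stays between 1.78 and 1.81, and *Reln* ranges from −1.05 to −0.0027.

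Levels were compared between members per length, as the deposited TPM. In the controls the order was *Crk* at 44.5 ± 6.24 (SD, n = 3), *Fyn* at 37.2 ± 9.93, *Dab2* at 34.3 ± 6.64, *Src* at 20.5 ± 2.48, *Crkl* at 15.2 ± 2.04, *Vldlr* at 11.1 ± 5.43, *Reln* at 7.76 ± 3.27, *Dab1* at 3.97 ± 0.44 and *Lrp8* at 0.90 ± 0.12. The ranges of neighbours overlapped among *Crk*, *Fyn* and *Dab2* and among *Crkl*, *Vldlr* and *Reln*, and were apart elsewhere. In the *Gp130* ecKO uteri *Crk*, at 46.8 ± 5.02, stood apart from the rest. *Src* at 26.2 ± 6.44, *Fyn* at 21.2 ± 10.6, *Crkl* at 20.4 ± 3.69, *Dab2* at 18.2 ± 8.90, *Dab1* at 16.8 ± 2.20 and *Vldlr* at 12.7 ± 6.28 followed, and each overlapped the next. *Reln* at 5.42 ± 1.44 and *Lrp8* at 0.58 ± 0.20 stood apart below them. *Dab1* thus stood at rank 8 of the members in the controls and at rank 6 in the *Gp130* ecKO uteri, and the ranks were the same by the deposited FPKM. Among all tested genes *Dab1* stood at percentile 31.7 in the controls and 60.0 in the *Gp130* ecKO uteri.

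RSEM also gives for each gene a mean transcript length, weighted by the abundance of its transcripts, which moves when the mix of transcripts moves. For *Dab1* it was 4532, 4197 and 4368 bases in the controls and 3740, 3569 and 3934 bases in the *Gp130* ecKO uteri. The *Gp130* ecKO uteri all lay below the controls, with a ratio of the means of 0.858. Of 13575 tested genes with more than 1 transcript, 9.4% were shorter in every *Gp130* ecKO uterus. The measure comes from the same libraries as the CPM of *Dab1* and is given as a description. The files hold 8 *Dab1* transcripts, where GENCODE M39 lists 66. Of the 8, the longest has 5373 bases and the next 2462 bases. If *Dab1* had only these 8, the longest made up between 59.6% and 82.8% of them over the controls. Over the *Gp130* ecKO uteri it made up between 38.0% and 70.6%. These are bounds that the mean length allows under that condition, not estimates. They rest on how RSEM divided 75-base reads among the 8, and would not hold with further transcripts. They also rest on GENCODE M39 lengths, which matched the files for 86.5% of genes with a single transcript. TPM is scaled by this length and also differs from CPM in its scaling for depth. The *Dab1* fold in TPM was larger than in CPM, and the part of each scaling in this gap was not tested. Its TPM was 3.49, 4.08 and 4.35 in the controls and 17.0, 18.9 and 14.5 in the *Gp130* ecKO uteri.

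Among the other members, *Crkl* was also shorter in every *Gp130* ecKO uterus, at 4399 to 4658 bases against 4708 to 5042. *Fyn* was longer in each, at 2592 to 2789 bases against 2288 to 2576. The groups overlapped for the other 6 members. Over all tested genes with more than 1 transcript, 9.36% were longer in every *Gp130* ecKO uterus and 18.8% did not overlap in either direction, so that 2 of these 8 members lie near the share of all genes.

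**Figure D3:**
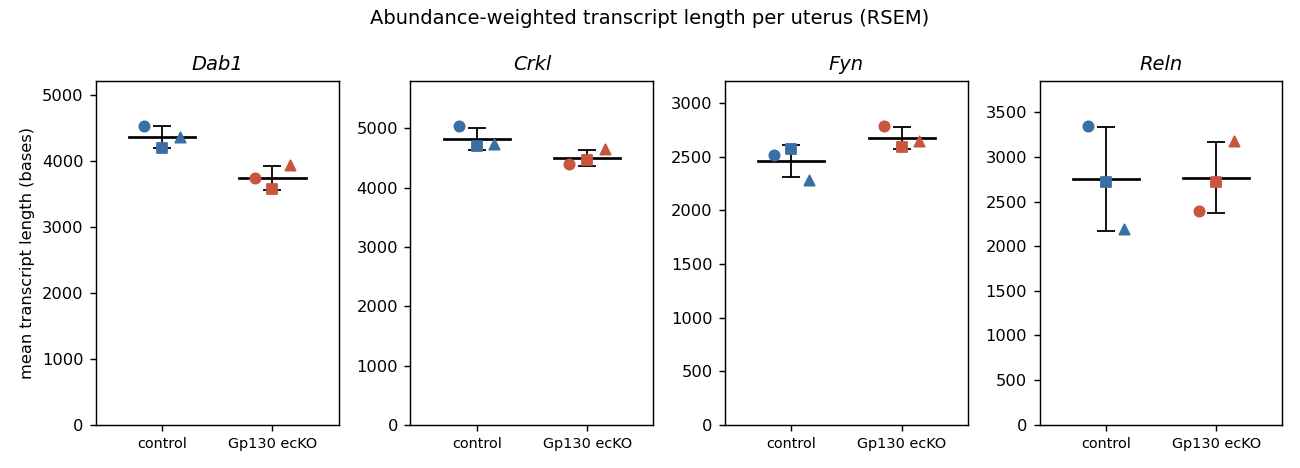
Mean transcript length in bases from RSEM, weighted by transcript abundance, in each uterus for *Dab1*, *Crkl*, *Fyn* and *Reln*. Lines are means, bars are SD over 3 uteri, and symbols are the same uteri as in the plot of CPM. *Dab1* lies at 3569 to 3934 bases in *Gp130* ecKO and 4197 to 4532 in controls.

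Summed levels of marker genes lay apart between the groups for several cell types, although edgeR's quasi-likelihood test called 0 of the 91 marker genes tested (lowest adjusted p = 0.0677). The other 9 of the 100 listed, the 5 embryo markers among them, were too weak to test. At an unadjusted p under 0.05, 8 of the 91 lay higher and 21 lower in *Gp130* ecKO, 31.9% in all, against 25% over all tested genes (12.1% higher and 12.9% lower). The exact test called 16 of the 91 (17.6%, against 7.54% of all tested genes) and the likelihood ratio test 17 (18.7%, against 7.93%). DESeq2 called 17 of the 87 to which it gave an adjusted p (19.5%, against 9.65%). The summed CPM of 10 pan-epithelial markers was 2546 to 4436 in controls and 5892 to 7747 in *Gp130* ecKO, and 9 of the 10 had a log2 fold change above 0. The summed CPM of 7 luminal epithelium markers was 1126 to 2761 and 3903 to 5530, with 7 of 7 above 0. The summed CPM of 10 stroma markers was 4208 to 5189 in controls and 2258 to 3095 in *Gp130* ecKO, with 10 of 10 below 0. The 7 blood endothelium markers summed to 421 to 1082 and 233 to 417, also with every marker below 0. Glandular epithelium, smooth muscle, lymphatic endothelium, macrophage, T and NK cell and red blood cell lists overlapped between the groups, and neutrophil, nerve and Schwann cell and mesothelium lists lay lower in every *Gp130* ecKO uterus. The embryo markers summed to at most 0.41 CPM. No marker was at 0 in all uteri, and each epithelial, stroma, smooth muscle and endothelial marker was above 0 in every uterus. In at least 1 uterus 11 of the 100 markers were at 0, namely 5 embryo, 3 neutrophil, 2 nerve and Schwann cell and 1 T and NK cell marker. Among them the neutrophil markers *S100a8* and *S100a9* were at 0 in *Gp130* ecKO 1, and *S100a9* also in *Gp130* ecKO 2.

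Members were therefore also set against the marker sum of the same uterus, a comparison chosen after the data had been seen. Where a marker sum differs between the groups, dividing by it shifts the difference of any gene, whichever cells express that gene. Per 1000 CPM of pan-epithelial markers, *Dab1* was 3.17, 2.92 and 5.29 in the controls and 5.78, 7.29 and 7.69 in the *Gp130* ecKO uteri. The groups stayed apart, with a log2 difference of 0.91 in place of 1.78. Per 1000 CPM of luminal epithelium markers, *Dab1* was 7.77, 4.69 and 11.96 in the controls and 8.09, 8.21 and 11.61 in the *Gp130* ecKO uteri. On this scale the groups overlapped, with a log2 difference of 0.27 whose positive sign rested on control 2 alone. The luminal sum leans heavily on 1 marker, *Calb1*. It stood at 126, 1228 and 334 CPM in the controls and at 2599, 3390 and 1660 CPM in the *Gp130* ecKO uteri. The ratio without *Calb1* was not computed, so the value of 0.27 depends on that gene. The part of the cell mix in the *Dab1* difference was not tested.

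*Dab2* per 1000 CPM of stroma markers was 19.7, 21.6 and 19.7 in the controls and 12.7, 21.2 and 14.96 in the *Gp130* ecKO uteri, so that the groups overlapped. The log2 difference was −0.35 relative to stroma and −0.28 relative to macrophage markers, in place of −1.04. *Fyn* had −0.09 relative to stroma and −0.02 relative to macrophage markers, in place of −0.78. *Lrp8* had −0.58 relative to stroma and −0.25 relative to blood endothelium markers, in place of −1.36, and the groups overlapped in each case. Per 1000 CPM of blood endothelium markers, *Lrp8* was 1.94, 3.02 and 9.19 in the controls and 4.46, 2.40 and 2.98 in the *Gp130* ecKO uteri. The negative sign of this −0.25 thus rested on control 3 alone. *Crkl*, which lay above the controls in CPM, lay below them relative to pan-epithelial markers, with a log2 difference of −0.63. The sum of those markers was itself higher in every *Gp130* ecKO uterus. The part of the cell mix in these differences was not tested.

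*Reln* was set beside the lymphatic endothelium markers, whose summed CPM was 673, 245 and 150 in the controls and 216, 130 and 328 in the *Gp130* ecKO uteri. Control 1 was the highest uterus for both. Per 1000 CPM of these markers *Reln* was 44.9, 57.4 and 51.1 in the controls and 52.2, 52.7 and 42.8 in the *Gp130* ecKO uteri. Its highest value was 1.34 times its lowest on this scale, against 4.41 times in CPM. The part of lymphatic endothelium in the *Reln* values was not tested.

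**Figure D4:**
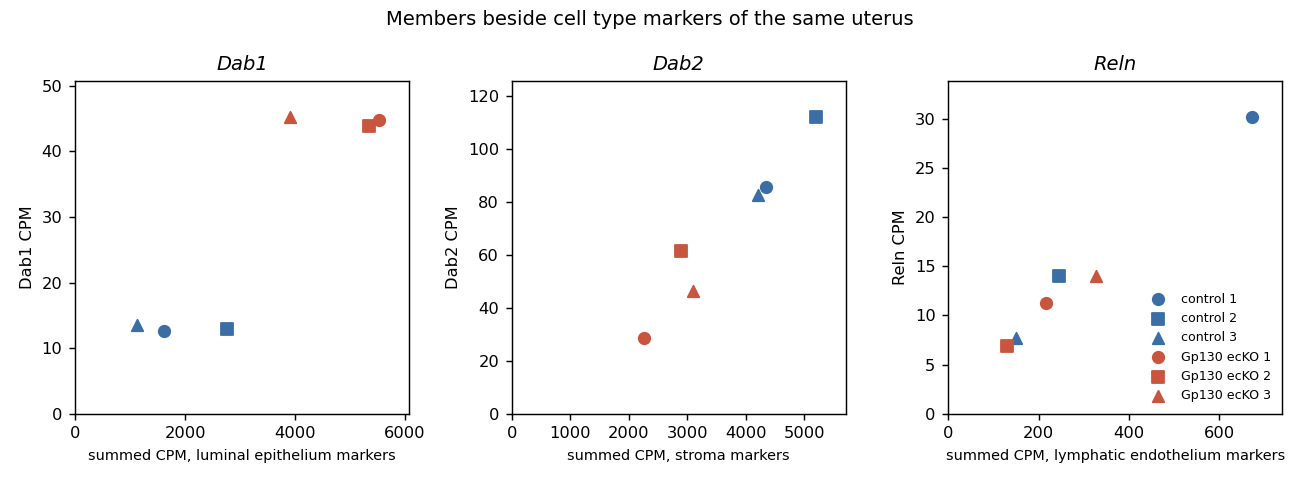
CPM of *Dab1*, *Dab2* and *Reln* against the summed CPM of luminal epithelium, stroma and lymphatic endothelium markers in the same uterus, 1 point per uterus, with axes from 0. *Dab1* lies near 13 in controls over 1126 to 2761 of marker CPM, and *Reln* and its markers are highest in control 1.

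The genes around these members in the pathway were counted from a list in 11 roles, of which 99 genes could be tested and 7 were too weak. Of the 99, edgeR's quasi-likelihood test called 0 genes, and 13 genes with higher and 18 with lower values in *Gp130* ecKO had an unadjusted p under 0.05, where 25% of all tested genes had it. The groups did not overlap for 15 higher and 23 lower genes, 38.4% of the 99 against 31.3% of all tested genes. The median log2 fold change was −0.14, against −0.05 over all tested genes. The exact test and the likelihood ratio test each called 9 of the 99 (7.54% and 7.93% of all tested genes), DESeq2 called 11 (9.65%), and the quasi-likelihood test called 8 without control 2 (5.2%). With no filter on low counts it called 1 of the list, *Socs3*, and 0.351% of all genes. Values of single genes of the list are therefore given as measured, with no change claimed.

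In the role of DAB1 degradation, the groups did not overlap for 6 of 12 genes, 2 higher and 4 lower, where 31.3% of all tested genes did not overlap. That share applies to the counts of the other roles too. *Socs3*, a feedback inhibitor of GP130 signaling, stood at 47.5, 29.5 and 67.2 CPM in the controls and at 5.11, 10.8 and 6.92 CPM in the *Gp130* ecKO uteri. Its log2 fold change was −2.65 ± 0.39 (SE, edgeR quasi-likelihood adjusted p = 0.0548). *Socs7*, whose product takes part in DAB1 degradation, had 59.1, 82.9 and 54.2 in controls and 148, 142 and 124 in *Gp130* ecKO, with a log2 fold change of 1.07 ± 0.20 (SE, edgeR quasi-likelihood adjusted p = 0.0675). *Socs2* had a log2 fold change of −0.94. *Cul5*, the scaffold of the ligase, had −0.01 and its groups overlapped.

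Among the other ligands of the receptors, the groups did not overlap for 4 of 6 genes. *Clu*, encoding the secreted chaperone clusterin, stood at 415, 137 and 140.3 CPM in the controls and at 134, 65.5 and 113 CPM in the *Gp130* ecKO uteri. Its log2 fold change of −1.15 rested largely on control 1 and was −0.39 without it. *Thbs1*, encoding thrombospondin 1, had 0.79. Of the 5 tested reelin proteases, *Adamts4* had −1.31 and *Adamts2* −0.57, each with no overlap. Among 10 other members of the LDL receptor family, *Lrp11* had −1.09 and *Lrp4* −1.08, also with no overlap, and the groups overlapped for the other 8. The 3 receptor chaperones and degradation genes overlapped.

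Among 12 other adaptors with a phosphotyrosine-binding domain like that of DAB1, the 3 without overlap all lay lower. *Apbb2* stood at 109, 47.4 and 85.3 CPM in the controls and at 22.3, 27.0 and 20.02 CPM in the *Gp130* ecKO uteri, with a log2 fold change of −1.80. *Apbb1* stood at 74.8, 18.7 and 29.3 CPM in the controls and at 10.2, 9.84 and 6.88 CPM in the *Gp130* ecKO uteri. Control 1 was far above the other controls, and the log2 fold change of −2.19 was −1.38 without it. *Apba2* had −0.78. Among the other SRC-family kinases and regulators, *Pag1*, which anchors the SRC inhibitor CSK at the membrane, had 1.44, and the kinase *Frk* had 1.27.

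In the PI3K and AKT branch the groups did not overlap for 6 of 11 genes, 4 higher and 2 lower, against 31.3% of all tested genes. *Pik3r1*, a regulatory subunit of PI3K, stood at 127, 179 and 202 CPM in the controls and at 383, 357 and 310.3 CPM in the *Gp130* ecKO uteri, with a log2 fold change of 1.05. *Pik3r3* had 0.99 and *Gsk3b* had 0.78. The lower genes were the kinases *Akt1* at −0.27 and *Akt2* at −0.49. In the RAP1 branch *Nectin3* had −0.95, *Nectin1* −0.83 and *Ctnnd1*, encoding p120 catenin, 0.73. In the LIS1 and cytoskeleton branch *Limk1* had −0.82, *Ndel1* 0.46 and *Cfl1* −0.39. Among membrane partners of reelin or DAB1, *Aplp2* had 0.82, *Aplp1* −0.81 and *Efnb1* −0.64. Apart from *Cul5* and *Akt1*, adjusted p-values of the genes named in these roles lay between 0.0548 and 0.282 by edgeR's quasi-likelihood test.

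**Figure D5:**
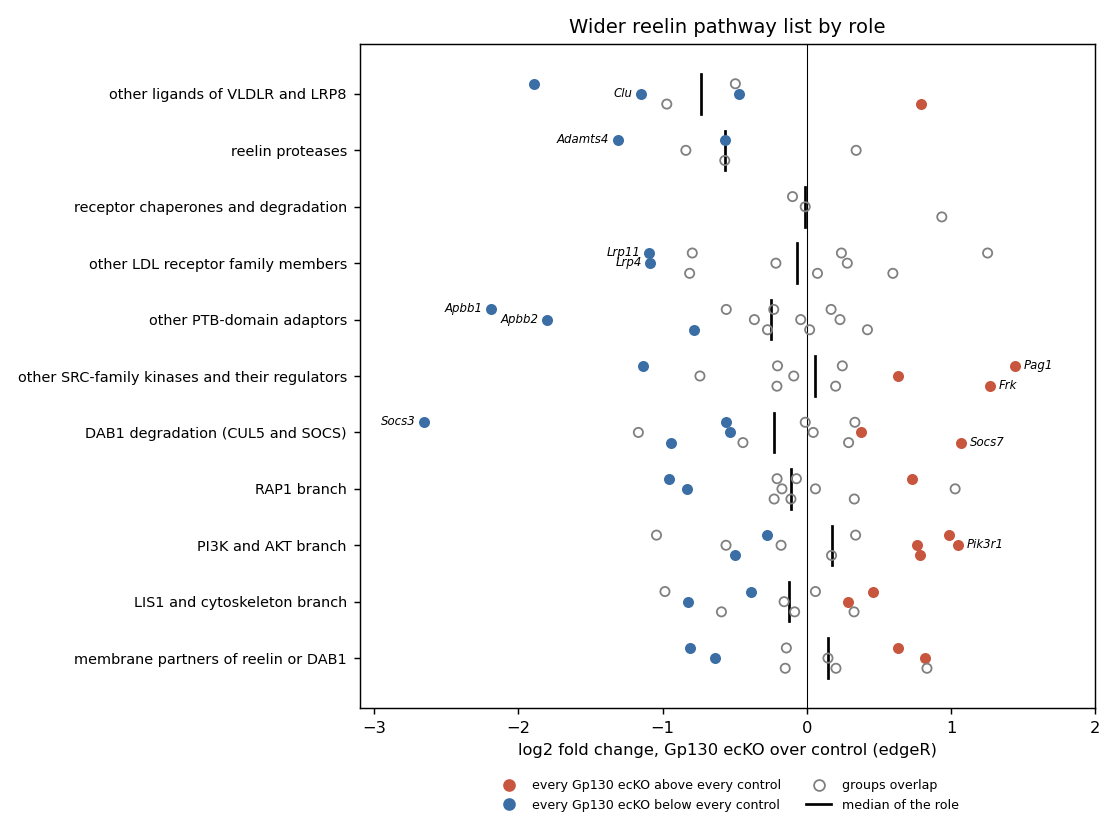
Log2 fold change, *Gp130* ecKO over control, of the 99 tested genes of the wider pathway list by role. Filled points are genes whose groups do not overlap, open points overlap, black bars are the median of each role, and names mark some of the genes without overlap whose change exceeds 1. *Socs3* lies at −2.65 and *Pag1* at 1.44.

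The genes most like *Dab1* over the 6 uteri were found by Pearson's r of log2(CPM + 0.5) among 14762 genes with a mean CPM of at least 1. The highest r was 0.999 for *Cldn22* and *Gm2436*, which had a CPM of 0 in each control and means of 6.80 ± 0.34 and 7.29 ± 0.70 (SD, n = 3) in *Gp130* ecKO. *Cldn22* lies inside *Wwc2* on the opposite strand. *Stat5b* followed at 0.997, with a CPM of 43.0 to 46.4 in controls and 101 to 109 in *Gp130* ecKO, then *Il20rb* and *Gm7332* at 0.995. Among the lowest r were −0.993 for *Cpxm1*, −0.992 for *Ppp1r3d*, −0.989 for *Sorcs2* and −0.988 for *Rhoj*. With uteri in 2 well separated groups, such an r describes mainly the gap between the groups. Among the members, the r with *Dab1* was 0.855 for *Crkl* and −0.888 for *Lrp8*.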

How the data were processed

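The authors made strand-specific libraries of poly(A) RNA from 6 whole uteri and read them at 75 bases from 1 end. Reads were trimmed with fastp 0.23.2, cleared of ribosomal RNA, mapped to GRCm39 with STAR 2.7.10a and counted with RSEM 1.3.3. The annotation version and the use of strand in counting are not given in the sources used here. The deposited expected counts are not normalized, and RSEM divides shared reads between genes. The authors' deposited TPM and FPKM are scaled for length and depth and were used for levels only. Mean transcript lengths are the deposited RSEM lengths.

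Rounded expected counts were tested with edgeR 4.0.16 (R 4.3.3): filterByExpr, TMM, and the quasi-likelihood F test on all 6 uteri, with Benjamini-Hochberg adjustment over 16605 genes. A call needed an adjusted p under 0.05 and a change beyond 2-fold. Standard errors (SE) were derived from the log2 fold change and its F statistic. DESeq2 was 1.42.0. Symbols and coordinates came from GENCODE M39, which holds 56017 of the 56748 identifiers. The members and lists were chosen with earlier results of these data known. Named genes were all members, called pathway genes, up to 3 genes per role with the largest change and no overlap, the 5 most and 5 least like *Dab1*, and its nearest tested neighbours. Some genes that this rule picks are not reported here. *Cul5*, *Akt1* and *Akt2* were added after their values were seen. An exact two-sided permutation test of 3 against 3 cannot go below p = 0.1.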

Additional observations from a re-analysis of the deposited data

How the results depend on the processing

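The number of genes called depended strongly on the test: 26 became 7 with the legacy form of the quasi-likelihood test, 1252 with the exact test, 1317 with the likelihood ratio test, 1593 with DESeq2 and 105 with no filter on low counts, and ranged from 1 to 892 as each uterus was left out. Members called went from 1 to 2 with the exact test and the likelihood ratio test and 3 with DESeq2, and ranged from 0 to 1 with each uterus left out. Pathway genes called went from 0 to 9, 9 and 11 with these tests and to 1 with no filter, and ranged from 0 to 8 with each uterus left out. The cause was not tested. *Vldlr* reversed to −0.18 without control 1 and −0.22 without *Gp130* ecKO 2, in a range up to 0.48 with each uterus left out. *Crk*, near 0 throughout, reversed to −0.060 with upper quartile scaling, −0.047 with library totals, −0.0022 with a CPM filter and −0.0013 without *Gp130* ecKO 2, in a range up to 0.071 with each uterus left out. *Crkl* kept its sign in all 17 alternative analyses. Its −0.63 relative to pan-epithelial markers follows a division by a sum that was higher in every *Gp130* ecKO uterus. Upper quartile scaling moved the median of all genes to −0.11. *Lrp8*, with 23 to 58 counts per uterus, has the fewest counts of the members.

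The labels do not say whether the replicate numbers pair the uteri. Deviations from the group mean correlated at 0.10, 0.06 and −0.19 for same-numbered uteri. For differently numbered uteri they correlated at −0.30 to 0.22. With 3 uteri per group these values cannot decide whether a litter, day or batch was shared. With the replicate block 6 genes and 0 members were called.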
